A study of Mus musculus with 8 samples.

Results

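Metal ion transporters and the proteins that carry or store metals were examined in lung epithelium lacking the Hippo kinases Mst1 and Mst2. The genes were chosen by name: every measured gene of the solute carrier families Slc11a, Slc30a, Slc31a, Slc39a, Slc40a and Slc41a, and the metal handling genes Mt1, Mt2, Tfrc, Trf, Fth1, Ftl1, Cp, Atp7a and Atp7b. That gave 40 genes out of 19938 with a probe set of their own. Slc11a1 was not analysed here. The arrays hold 4 knockout and 4 control samples of mouse lung cells bearing the epithelial surface protein Epcam, taken at embryonic stage E18.5. In the knockout group, labelled Mst1/2 CKO, both kinase genes had been deleted in epithelial progenitors of the lung by ShhCre, a Cre recombinase driven from the Shh locus. The control group is labelled only as Control, and the labels do not say which alleles it carried. Each array is called a biological replicate, and whether it stands for 1 embryo or for pooled embryos is not given, so p-values measure the spread between these samples.

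Cells take up iron mainly by binding transferrin (Trf) to its receptor (Tfrc). The iron is then reduced and passed into the cytosol by Slc11a2, held in ferritin (Fth1, Ftl1) and released through ferroportin (Slc40a1). Copper enters through Slc31a1 and is pumped into the secretory pathway or out of the cell by Atp7a and Atp7b, while ceruloplasmin (Cp) carries copper and oxidises released iron. Most Slc30a proteins move zinc out of the cytosol, and Slc39a proteins move zinc, and in some cases manganese or iron, into it. Slc41a proteins transport magnesium, and the metallothioneins Mt1 and Mt2 bind zinc and copper in the cytosol. In the lung, transferrin, ceruloplasmin and metallothioneins belong to the defence of the airspace against free metals.

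Values are log2 expression of 1 probe set per gene, and differences are those of knockout over control on that scale, given with their standard error (SE). A level of 1 probe set cannot be set against that of another. A gene is called changed where limma's moderated test gives a p under 0.05 after Benjamini-Hochberg adjustment over all 19938 genes. The array medians lay between 7.21 and 7.3, and precision is limited by having 8 arrays. Stk4, which encodes Mst1, read 9.45, 9.44, 9.31 and 9.24 in knockout arrays and 9.59, 9.84, 9.59 and 9.62 in control arrays (difference −0.30, SE 0.076, adjusted p = 0.0188). Whether its probes lie in the deleted part is not known, so this does not check the deletion, and the other deleted kinase gene was not analysed here. Epcam averaged 10.07 in knockout and 10.06 in control arrays, and the mean of 8 general epithelial markers lay between 10.94 and 11.10 in knockout and between 11.01 and 11.17 in control arrays. Markers of other cells were also present: the mean of 13 mesenchymal markers was 8.77 to 9.23 in knockout and 8.48 to 8.93 in control arrays. Of the 13, 4 were higher in knockout (30.8%, against 8.6% of all genes) and none lower. Of 7 endothelial markers, 3 were higher in knockout (42.9%, against the same 8.6%) and none lower.

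Transferrin and its receptor, ceruloplasmin, the copper importer Slc31a1 and the copper pumps Atp7a and Atp7b fell in the knockout cells, while the magnesium carrier Slc41a2 rose. The iron carrier Slc11a2 was also called higher, but near the threshold (adjusted p = 0.0473 in limma) and with overlapping groups. Its call ended under 10 of 18 alternative fits. The ferritins, the metallothioneins and the Slc39a family had no member that passed the test. Of the 40 genes 11 changed (27.5%), 9 of them lower and 2 higher. Over all genes limma called 18.8%, with 10.2% lower and 8.6% higher in knockout. The set and all other gene lists used here were chosen with earlier results of these data known. Their shares therefore describe the lists alone. The groups did not overlap in 12 of the 40 genes (30%), against 22.1% of all genes. The median difference over the 40 genes was −0.03, close to the −0.02 over all genes, and the median size of the difference was 0.15 against 0.09. The fallen genes were Trf, Cp, Tfrc, Atp7b, Slc41a1, Slc31a1, Atp7a, Slc30a7 and Slc30a4, and the risen genes were Slc41a2 and Slc11a2. In these bulk samples, fewer cells of a type and less RNA per cell cannot be told apart.

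**Figure D1:**
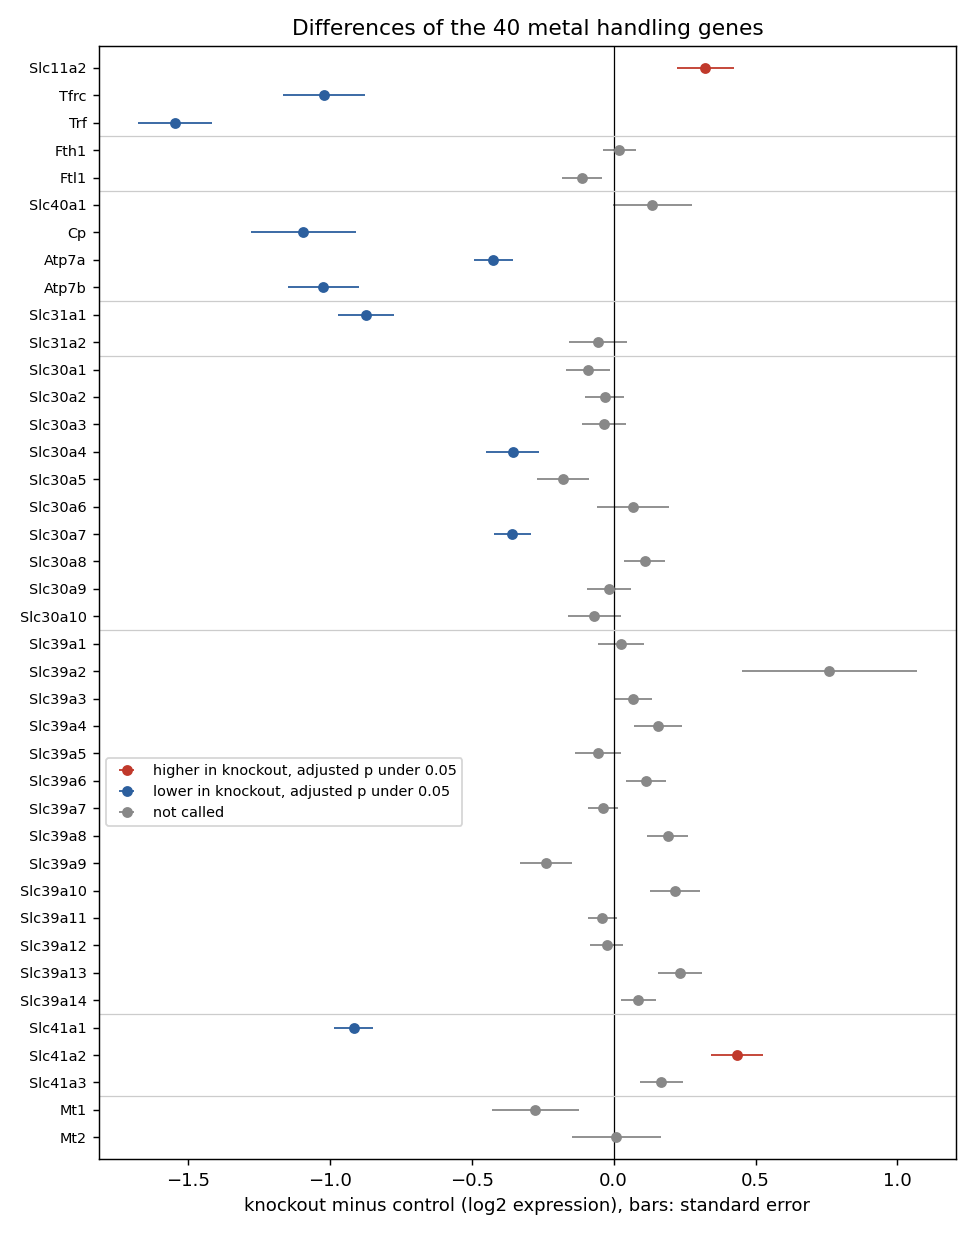
Difference between knockout and control arrays (horizontal axis, log2 expression, knockout minus control) for the 40 metal handling genes, in groups by role. Points are limma's estimates and bars their standard errors. The 9 genes lower in knockout reach −1.54 (Trf), and the 14 Slc39a genes hold none that was called.

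Transferrin and its receptor fell together. Trf, the plasma iron carrier, read 11.03, 10.63, 10.58 and 10.63 in knockout arrays 1 to 4 and 11.96, 12.51, 12.19 and 12.40 in control arrays 1 to 4. All knockout values lay below the lowest control value, and knockout replicate 1 stood above the other knockout arrays. The fall was 2.92-fold (difference −1.54, SE 0.13, adjusted p = 2.61e-05). Tfrc, the receptor that takes up iron-loaded transferrin, read 8.30, 8.32, 8.27 and 7.65 in knockout arrays and 9.28, 9.09, 8.95 and 9.30 in control arrays. The groups did not overlap, and knockout replicate 4 was the lowest. Tfrc fell 2.03-fold (−1.02, SE 0.14, adjusted p = 5.99e-04). Tfrc is abundant in red cell precursors, and 6 erythroid markers averaged 6.43 to 6.72 in knockout and 6.43 to 6.55 in control arrays, with none called by limma in either direction. At an unadjusted p under 0.05, 1 of the 6 erythroid markers passed (16.7%, against 29.6% of all genes). It was Alas2, which was higher in knockout (0.23, SE 0.097). Of the 6 differences 4 were positive and 2 negative. The list held 10 such markers, of which these 6 were measured. Klf1 (6.20 in knockout and 6.14 in control arrays), Epb42 (5.88 and 5.93) and Hbb-bh1 (4.91 and 4.93) lay well below the array medians. At such levels a change may not show. The part of red cell precursors in the fall of Tfrc was not tested.

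Slc11a2, known as DMT1, which passes ferrous iron out of endosomes, read 9.59, 9.66, 9.41 and 9.24 in knockout arrays and 9.18, 9.08, 9.02 and 9.33 in control arrays. Knockout replicate 4 lay below control replicate 4, so the groups overlapped. The rise was 1.25-fold (0.32, SE 0.10, adjusted p = 0.0473). This call ended without any 1 of knockout replicates 1, 2 and 3 or control replicates 1, 2 and 3, with adjusted p between 0.0807 and 0.133. It also ended with each array centred on its median (difference 0.31, adjusted p = 0.0796), with Xist in the fit (0.31, adjusted p = 0.0762) and with the mean of the mesenchymal markers in the fit (0.41, adjusted p = 0.0899).

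The ferritin genes did not pass the test. Fth1, the heavy chain that oxidises iron for storage, averaged 12.81 ± 0.04 in knockout and 12.79 ± 0.07 in control arrays (SD, n = 4 each). Its difference was 0.02, with a 95% interval of −0.11 to 0.15 and adjusted p = 0.864 in limma. Ftl1, the light chain, averaged 12.21 ± 0.05 in knockout and 12.32 ± 0.13 in control arrays (difference −0.11, interval −0.27 to 0.04, adjusted p = 0.348 in limma). Both ferritin genes have near-identical copies in the genome, so their probe sets may read more than 1 gene. Both also lie high in the range of the arrays, whose highest values were 13.69 to 13.95. Whether a change could still show there was not tested.

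Slc40a1, the iron exporter ferroportin, read 7.96, 8.0, 8.02 and 7.96 in knockout arrays and 7.43, 8.27, 7.82 and 7.87 in control arrays. The knockout values lay within the wide range of the controls (difference 0.14, interval −0.17 to 0.44, adjusted p = 0.590). Ferroportin is abundant in macrophages. The mean of 10 leukocyte and macrophage markers was 9.17, 9.14, 9.14 and 9.25 in knockout arrays and 8.85, 9.60, 9.24 and 9.10 in control arrays, so control replicate 1 was lowest and control replicate 2 highest in that mean and in Slc40a1 alike. Among the knockout arrays the order differed: knockout replicate 4 was highest in that mean (9.25) and lowest in Slc40a1 (7.956). The part of these cells in the level of Slc40a1 was not tested. Of these 10 markers 2 rose and 1, the lysozyme gene Lyz1, fell (30% called, against 18.8% of all genes). Lyz1 differed by −1.92 (SE 0.29), so it pulls down the knockout values of that mean relative to the controls. The lysozyme gene Lyz2, counted here among the type 2 markers, differed by −0.93 (SE 0.086). Cp, the copper-carrying ferroxidase, read 7.80, 7.63, 7.98 and 8.20 in knockout arrays and 8.45, 9.21, 8.94 and 9.38 in control arrays. Every knockout value lay below every control value, with control replicate 1 the nearest to the knockout arrays. Cp fell 2.13-fold (−1.09, SE 0.18, adjusted p = 0.00185).

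**Figure D2:**
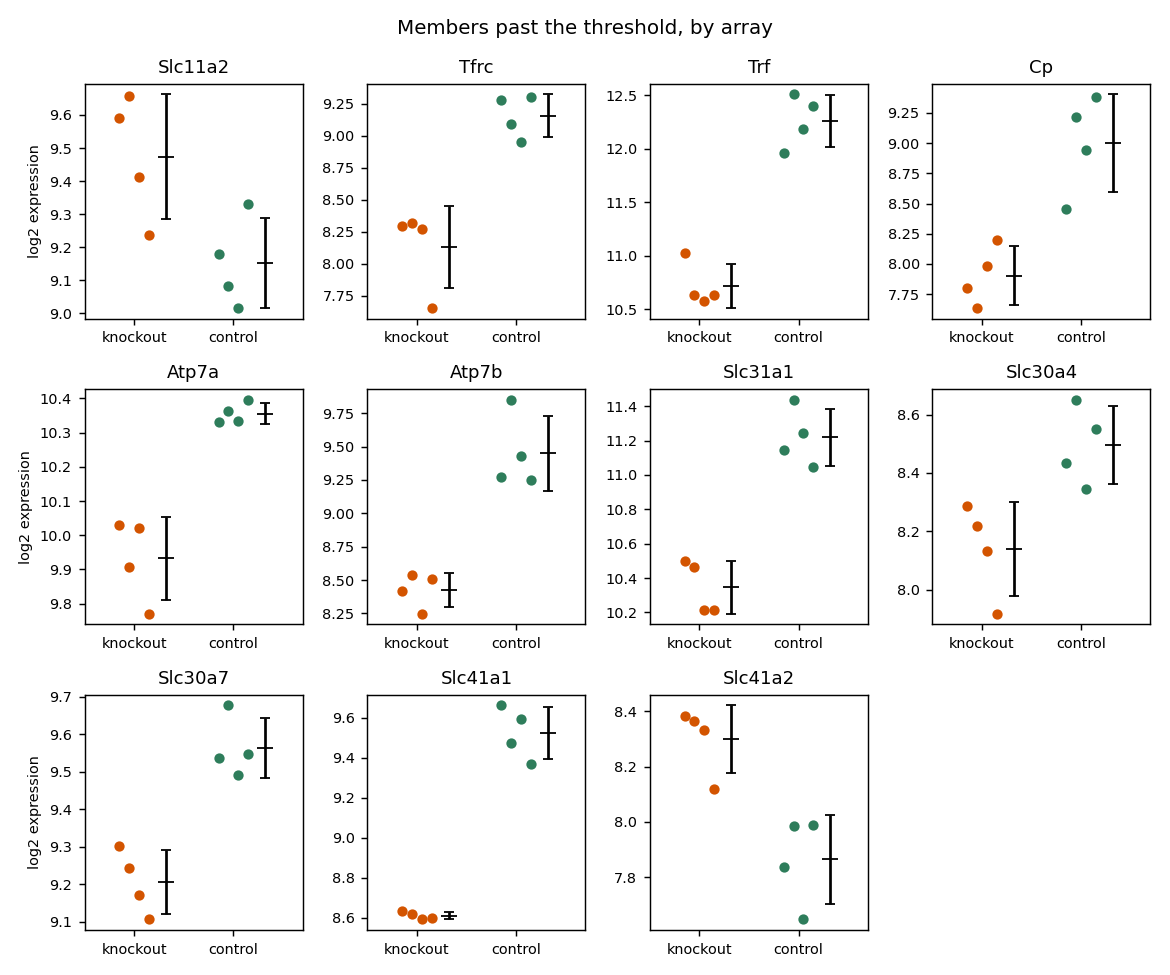
Log2 expression (vertical axis, scaled to each gene) of the 11 called genes in the 4 knockout arrays (left, replicates 1 to 4 in order) and the 4 control arrays (right), with mean and SD beside the points. The groups are apart in 10 of the 11 genes and overlap in Slc11a2, where knockout replicate 4 at 9.24 lies below control replicate 4 at 9.33.

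Some other iron genes also fell. Of 33 measured genes of iron regulation and heme handling, 5 fell, none rose and 28 did not pass. That is 15.2% called, all lower, against 18.8% of all genes called and 10.2% lower. Cybrd1, a reductase that turns ferric into ferrous iron in duodenal epithelium, read 8.52, 7.98, 7.66 and 7.36 in knockout arrays and 10.24, 10.22, 10.003 and 9.60 in control arrays. Its groups did not overlap, with knockout replicate 1 the nearest to the controls, and it fell 4.38-fold (−2.13, SE 0.22, adjusted p = 8.78e-05). Steap4 and Steap2 belong to a family of reductases acting on iron and copper. Steap4 fell 3.73-fold (−1.90, SE 0.21), with values of 7.13 to 8.03 in knockout and 8.98 to 9.85 in control arrays. Steap2 fell 2.61-fold (−1.38, SE 0.14), with values of 7.14 to 7.56 in knockout and 8.56 to 9.19 in control arrays. Lcn2, a secreted protein that binds the iron-carrying siderophores of bacteria, fell 3.16-fold (−1.66, SE 0.16, adjusted p = 5.37e-05).

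Flvcr1, a heme exporter, also fell, by 0.71 on the log2 scale (SE 0.084, adjusted p = 2.01e-04). The regulators that read cytosolic iron did not pass. Ireb2, an iron regulatory protein that binds mRNAs of the receptor and of the ferritins, differed by 0.01 (SE 0.09, adjusted p = 0.974). Aco1, the other iron regulatory protein, differed by −0.05 (SE 0.06, adjusted p = 0.710). Steap3, the reductase of the transferrin cycle in red cell precursors, differed by −0.02 (SE 0.06, adjusted p = 0.872). Ncoa4, the receptor that delivers ferritin to lysosomes, differed by 0.10 (SE 0.11, adjusted p = 0.620).

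The copper importer Slc31a1 and both copper pumps fell, while Slc31a2 did not pass. Slc31a1, the high-affinity copper importer CTR1, read 10.50, 10.46, 10.21 and 10.21 in knockout arrays and 11.15, 11.44, 11.24 and 11.05 in control arrays. The groups did not overlap, and Slc31a1 fell 1.83-fold (−0.87, SE 0.098, adjusted p = 1.39e-04). Atp7b, the copper pump mutated in Wilson disease, read 8.42, 8.54, 8.25 and 8.50 in knockout arrays and 9.27, 9.85, 9.43 and 9.25 in control arrays. It fell 2.03-fold with no overlap (−1.02, SE 0.13, adjusted p = 2.38e-04). Atp7a, the copper pump mutated in Menkes disease, read 10.03, 9.91, 10.02 and 9.77 in knockout arrays and 10.33, 10.36, 10.34 and 10.40 in control arrays. The control arrays lay close together and all above the knockout arrays, and Atp7a fell 1.34-fold (−0.42, SE 0.067, adjusted p = 0.00127). Slc31a2, a relative of the importer found on endosomes and lysosomes, did not pass (−0.05, interval −0.28 to 0.17, adjusted p = 0.795).

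The promoters of the copper importer and of both copper pumps are shown because these 3 genes fell together. Each is 300 bases, 5′ to 3′, from RefSeq on build GRCm38.p6, with 250 bases before and 50 after the annotated start. Capitals mark the core of the metal response element, the site of the zinc-sensing factor Mtf1, searched as TGCACNC and TGCGCNC on both strands. The search found 1 match for Atp7b, 2 for Atp7a and 0 for Slc31a1.
Slc31a1, chr4:62360451-62360750, plus strand: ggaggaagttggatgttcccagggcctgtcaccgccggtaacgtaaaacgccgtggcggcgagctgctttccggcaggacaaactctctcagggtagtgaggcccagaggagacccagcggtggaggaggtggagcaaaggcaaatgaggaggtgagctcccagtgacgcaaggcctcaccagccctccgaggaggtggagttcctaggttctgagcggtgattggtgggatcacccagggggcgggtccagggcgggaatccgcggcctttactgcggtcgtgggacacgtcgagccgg
Atp7b, chr8:22060025-22060324, minus strand: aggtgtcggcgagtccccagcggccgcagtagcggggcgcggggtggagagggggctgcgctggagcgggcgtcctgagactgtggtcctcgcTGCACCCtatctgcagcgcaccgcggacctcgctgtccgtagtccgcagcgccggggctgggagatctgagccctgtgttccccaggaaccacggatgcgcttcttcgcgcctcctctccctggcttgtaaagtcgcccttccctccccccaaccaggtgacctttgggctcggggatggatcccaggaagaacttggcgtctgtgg
Atp7a, chrX:106026974-106027273, plus strand: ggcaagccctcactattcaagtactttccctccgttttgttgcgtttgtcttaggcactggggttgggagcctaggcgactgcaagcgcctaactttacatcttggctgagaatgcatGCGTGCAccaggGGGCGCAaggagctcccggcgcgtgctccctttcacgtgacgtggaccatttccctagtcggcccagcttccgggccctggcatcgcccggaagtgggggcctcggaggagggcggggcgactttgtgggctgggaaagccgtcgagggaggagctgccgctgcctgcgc

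Of 15 measured copper chaperones and copper enzymes 2 rose, 1 fell and 12 did not pass (20% called, against 18.8% of all genes). Lox, a copper-dependent oxidase of the extracellular matrix, rose 4.39-fold (2.13, SE 0.15), with values of 11.17 to 11.42 in knockout and 8.73 to 9.53 in control arrays. Cox17, which hands copper to cytochrome oxidase, rose by 0.30 (SE 0.081, adjusted p = 0.0275), with values of 7.11 to 7.28 in knockout and 6.67 to 7.05 in control arrays. Sod3, the extracellular copper and zinc superoxide dismutase, fell by 0.42 (SE 0.086, adjusted p = 0.00601). The chaperones that serve the secretory pumps and cytosolic Sod1 did not pass: Atox1 differed by −0.09 (SE 0.08, adjusted p = 0.547) and Ccs by −0.08 (SE 0.07, adjusted p = 0.545).

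**Figure D3:**
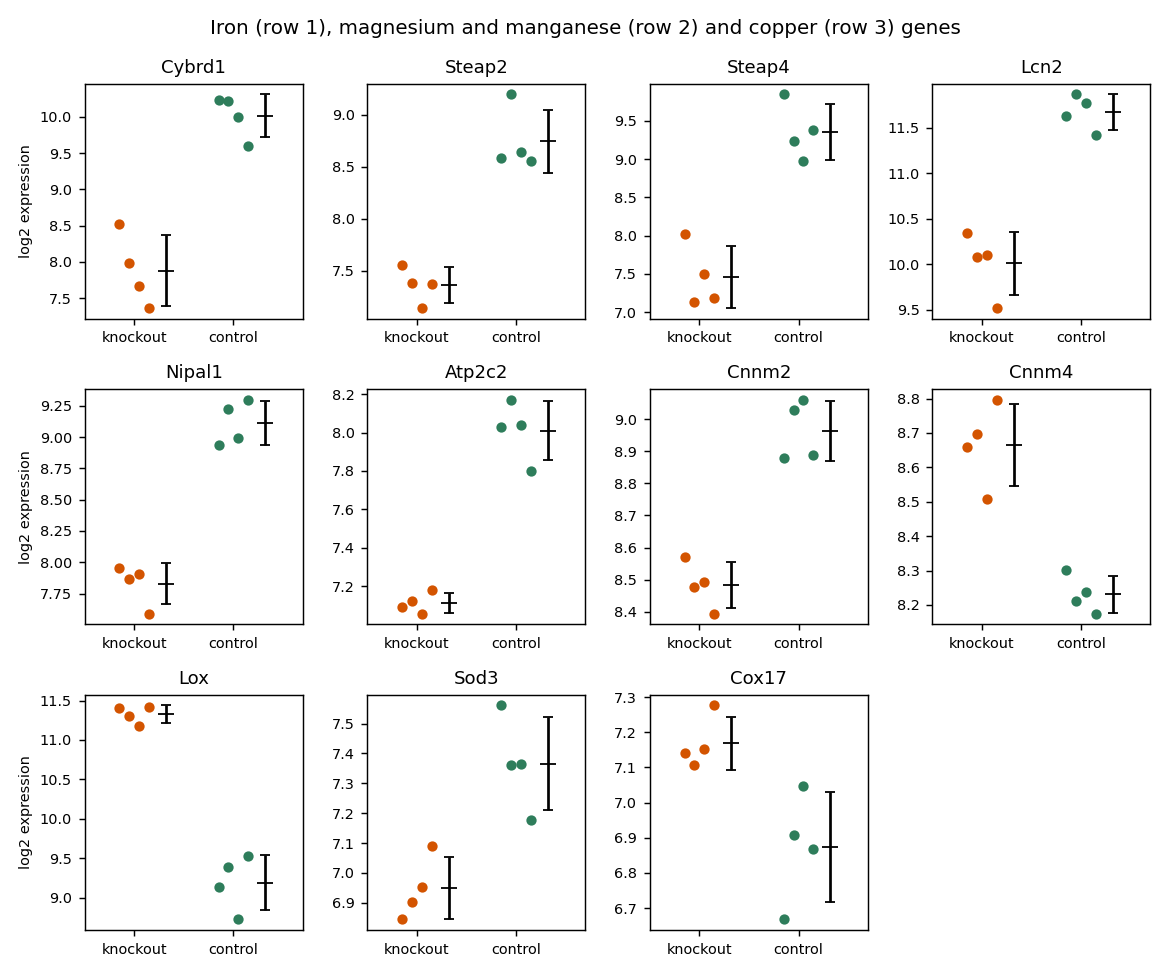
Log2 expression (vertical axis, scaled to each gene) of iron, magnesium and manganese, and copper genes outside the transporter families, in the 4 knockout arrays (left) and 4 control arrays (right), with mean and SD beside the points. Cybrd1, Steap2, Steap4, Lcn2, Nipal1, Atp2c2, Cnnm2 and Sod3 lie lower in every knockout array, and Cnnm4, Lox and Cox17 higher.

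Among the 10 measured genes of the Slc30a family, most of them zinc exporters or vesicle loaders, 2 fell, none rose and 8 did not pass. That is 20% called, all lower, against 18.8% of all genes called and 10.2% lower. Slc30a7, which fills the early secretory pathway with zinc, read 9.30, 9.24, 9.17 and 9.11 in knockout arrays and 9.54, 9.68, 9.49 and 9.55 in control arrays. It fell 1.28-fold with no overlap (−0.36, SE 0.065, adjusted p = 0.00298). Slc30a4, which loads zinc into secretory vesicles, read 8.29, 8.22, 8.13 and 7.92 in knockout arrays and 8.43, 8.65, 8.34 and 8.55 in control arrays. It also fell 1.28-fold without overlap (−0.36, SE 0.092, adjusted p = 0.0210). The call of Slc30a4 ended without knockout replicate 3 (adjusted p = 0.0552), control replicate 2 (0.0577) or control replicate 4 (0.0540), and without knockout replicates 1 and 4 together (0.0517). With the mean of the mesenchymal markers added to the fit, the difference was −0.26 for Slc30a4 (adjusted p = 0.257) and −0.28 for Slc30a7 (adjusted p = 0.0672).

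Slc30a5, which forms the zinc carrier of the Golgi with Slc30a6, differed by −0.18 (interval −0.38 to 0.03, adjusted p = 0.236), and Slc30a6 by 0.07 (interval −0.21 to 0.35, adjusted p = 0.788). Slc30a1, the exporter of the plasma membrane, differed by −0.09 (interval −0.26 to 0.08, adjusted p = 0.506). The remaining 5 members differed by −0.07 (Slc30a10) to 0.11 (Slc30a8). Slc30a8, the zinc transporter of insulin granules, averaged 5.75 in knockout and 5.64 in control arrays, at a level that olfactory receptor genes also reached. The means of 1027 such receptor genes, which lung epithelium is not known to use, had a median of 4.69 and a 95th percentile of 6.48. Slc39a12, at 5.49 in knockout and 5.52 in control arrays, was the other gene below that percentile.

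No Slc39a gene was called by limma. At an unadjusted p under 0.05, 5 of 14 passed (35.7%, against 29.6% of all genes). With an intensity trend in the variance the number called was also 0, while Slc39a2, Slc39a4, Slc39a8 and Slc39a13 each passed under at least 1 other alternative. Of the 14 differences 9 were positive and 5 negative, with a median of 0.08. Slc39a2 had the highest difference, 0.76, but the widest spread (interval 0.08 to 1.44, adjusted p = 0.122). It read 9.45, 9.19, 9.21 and 8.92 in knockout arrays and 8.92, 7.28, 8.79 and 8.75 in control arrays. The groups touched without overlapping, and control replicate 2 lay far below the rest. Without that array the difference was 0.37 and the adjusted p 0.0476.

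Slc39a13, which supplies zinc to connective tissue cells, differed by 0.23 (SE 0.078, adjusted p = 0.0635). It passed without control replicate 1 (0.29, adjusted p = 0.0205) and when the test was limited to genes at or above the median level (0.23, adjusted p = 0.0479). Slc39a8, a carrier of manganese and zinc at the plasma membrane, differed by 0.19 (SE 0.072, adjusted p = 0.0976), and passed without control replicate 1 (0.24, adjusted p = 0.0460). Slc39a10, a zinc importer of the cell surface, read 9.06, 9.08, 9.44 and 9.05 in knockout arrays and 9.03, 8.91, 8.93 and 8.89 in control arrays (0.22, SE 0.089, adjusted p = 0.128). Its groups did not overlap, and knockout replicate 3 stood above all other arrays. Slc39a9 was the fifth gene past the unadjusted threshold, with a negative difference (−0.24, SE 0.091, adjusted p = 0.104). Slc39a4, the intestinal zinc importer mutated in acrodermatitis enteropathica, differed by 0.16 (interval −0.03 to 0.34, adjusted p = 0.258), and passed with the mean of the mesenchymal markers in the fit (0.33, adjusted p = 0.0392). Slc39a14, which takes up manganese and iron in liver, differed by 0.09 (interval −0.05 to 0.22, adjusted p = 0.411). The differences of the other 7 members lay between −0.05 (Slc39a5) and 0.12 (Slc39a6). For Slc39a1 the probe set used differed by 0.03 and its other one by −0.18, and neither was called.

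The metallothioneins varied among arrays of the same group. Mt1 read 10.38, 10.49, 10.06 and 10.68 in knockout arrays and 10.37, 10.88, 10.96 and 10.51 in control arrays. The groups overlapped (−0.28, interval −0.61 to 0.06, adjusted p = 0.273). Mt2 read 11.25, 11.32, 10.98 and 11.61 in knockout arrays and 10.91, 11.52, 11.52 and 11.17 in control arrays. Here the means were nearly equal (0.01, interval −0.34 to 0.36, adjusted p = 0.980). In both genes knockout replicate 3 was the lowest and knockout replicate 4 the highest knockout array, and control replicate 1 the lowest control array. The 2 genes are close in sequence, so their probe sets may share signal. Mtf1, the zinc-sensing factor that induces them, differed by −0.07 (SE 0.08, adjusted p = 0.609).

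The promoters of Mt1, Mt2 and the zinc exporter Slc30a1 are shown because these genes are known targets of Mtf1 and none of the 3 was called. Build, length and capitals are as for the copper genes.
Mt1, chr8:94178839-94179138, plus strand: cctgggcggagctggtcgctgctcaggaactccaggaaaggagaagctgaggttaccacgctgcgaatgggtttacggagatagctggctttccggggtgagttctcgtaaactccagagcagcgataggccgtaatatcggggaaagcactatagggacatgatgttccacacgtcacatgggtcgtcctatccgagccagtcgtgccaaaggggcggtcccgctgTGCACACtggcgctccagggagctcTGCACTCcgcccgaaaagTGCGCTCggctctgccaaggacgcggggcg
Mt2, chr8:94172368-94172667, plus strand: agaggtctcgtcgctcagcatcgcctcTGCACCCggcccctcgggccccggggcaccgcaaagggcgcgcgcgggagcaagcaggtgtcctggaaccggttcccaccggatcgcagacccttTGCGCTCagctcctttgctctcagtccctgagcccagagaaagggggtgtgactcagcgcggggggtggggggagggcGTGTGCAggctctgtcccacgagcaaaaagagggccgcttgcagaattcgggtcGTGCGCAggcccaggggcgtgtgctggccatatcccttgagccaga
Slc30a1, chr1:191906531-191906830, plus strand: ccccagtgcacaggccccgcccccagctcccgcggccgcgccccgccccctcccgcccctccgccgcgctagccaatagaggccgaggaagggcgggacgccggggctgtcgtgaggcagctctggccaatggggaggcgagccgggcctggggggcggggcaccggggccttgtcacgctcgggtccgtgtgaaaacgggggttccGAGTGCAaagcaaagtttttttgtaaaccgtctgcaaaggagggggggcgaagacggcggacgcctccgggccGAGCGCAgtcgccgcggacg
Within these windows Mt1 held 3 matches, Mt2 held 4 and Slc30a1 held 2. Those of Mt1 began at −23, 2 and 20 bases from the annotated start. Sites outside the windows were not searched. RefSeq windows were matched for 33 of the 40 genes. Of these, 20 held at least 1 match (60.6%), against 28.2% of all 27025 genes with a window, and 4 held at least 3 (12.1%, against 2.27%). The share was 5 of 8 among genes that fell and 14 of 24 among genes not called. CATTCC, the core bound by the Tead partners of Yap, searched on both strands and chosen after the values were seen, was found in 5 of the 33 genes (15.2%), against 16.6% of all genes. The 27025 genes include some not measured here, and the comparison was not matched for base composition. Mt1, Mt2 and Slc30a1, known targets of Mtf1, are among the 33 genes. Matches are a description of these windows.

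Other zinc genes moved in both directions: of 9 measured, 1 rose, 3 fell and 5 did not pass (44.4% called, against 18.8% of all genes). This short list was chosen with earlier results of these data known, so its share describes the list alone. Tmem163, a zinc transporter of vesicles, read 8.33, 7.91, 8.03 and 8.19 in knockout arrays and 10.04, 10.07, 9.73 and 9.64 in control arrays. It fell 3.37-fold with no overlap (−1.75, SE 0.12, adjusted p = 9.72e-06). Alpl, a zinc-dependent alkaline phosphatase, fell 1.94-fold (−0.95, SE 0.080). Car4, a membrane-bound carbonic anhydrase with zinc in its active site, rose 3.69-fold (1.88, SE 0.26). Car2, its cytosolic relative, fell 1.41-fold (−0.50, SE 0.15, adjusted p = 0.0366).

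Magnesium transporters moved in opposite directions. Slc41a1, a magnesium exporter that exchanges it for sodium, read 8.63, 8.62, 8.59 and 8.60 in knockout arrays and 9.66, 9.47, 9.59 and 9.37 in control arrays. The knockout arrays lay close together, all below the controls. Slc41a1 fell 1.89-fold (−0.91, SE 0.069, adjusted p = 1.55e-05), the smallest adjusted p of the 40 genes. Slc41a2, a magnesium carrier related to it, read 8.38, 8.37, 8.33 and 8.12 in knockout arrays and 7.84, 7.98, 7.65 and 7.99 in control arrays. It rose 1.35-fold with no overlap (0.43, SE 0.090, adjusted p = 0.00639). Slc41a3, the mitochondrial member of the family, did not pass (0.17, interval −0.001 to 0.34, adjusted p = 0.171).

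Of 21 other genes of magnesium and manganese transport 3 fell, 1 rose and 17 did not pass (19% called, against 18.8% of all genes). Nipal1, a magnesium carrier, fell 2.43-fold (−1.28, SE 0.10), with values of 7.59 to 7.96 in knockout and 8.94 to 9.30 in control arrays. Atp2c2, a Golgi pump for calcium and manganese, fell 1.86-fold (−0.90, SE 0.078), with values of 7.06 to 7.18 in knockout and 7.80 to 8.17 in control arrays. The related cyclin M genes, which are tied to magnesium transport in kidney and gut, split. Cnnm2 fell 1.39-fold (−0.48, SE 0.066) and Cnnm4 rose 1.35-fold (0.43, SE 0.069), each with no overlap between the groups.

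Genes of the oxidative stress response, which free iron and copper can set off, did not move as one. Of 11 measured, 2 fell, 1 rose and 8 did not pass (27.3% called, against 18.8% of all genes). Gclc, the catalytic subunit that starts glutathione synthesis, fell 2.38-fold (−1.25, SE 0.083, adjusted p = 9.71e-06). Nfe2l2, which encodes the regulator Nrf2, fell 1.41-fold (−0.50, SE 0.092, adjusted p = 0.00304). Slc7a11, which imports cystine for glutathione, rose 2.24-fold (1.16, SE 0.11, adjusted p = 4.34e-05). Hmox1, the heme oxygenase that frees iron from heme, did not pass (0.13, SE 0.13, adjusted p = 0.582).

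The falls went along with lower levels of most type 2 cell markers, the genes of the surfactant-making alveolar cell. The mean of 16 type 2 markers was 11.29, 11.001, 11.08 and 10.67 in knockout arrays and 12.16, 12.32, 12.16 and 12.07 in control arrays. Of the 16, 15 fell (93.8%, against 10.2% of all genes). The exception was the surfactant gene Sftpc (−0.05, SE 0.05, adjusted p = 0.553 in limma). Sftpc averaged 13.32 in knockout and 13.38 in control arrays, high in the range of the arrays. The marker lists were chosen with earlier results of these data known, so their shares describe the lists alone. Knockout replicate 1 was the highest knockout array in the type 2 mean and in Trf, and knockout replicate 4 the lowest in that mean and in Tfrc. At the other end neither gene followed the mean: Trf was lowest in knockout replicate 3 (10.58) and Tfrc highest in knockout replicate 2 (8.32). Within the knockout arrays the order also differed for Cp, where knockout replicate 4 was the highest, and Slc41a1 hardly varied among them. The means of the general epithelial and type 1 markers were likewise highest in knockout replicate 1 (11.10 and 11.99). Both were lowest in knockout replicate 4 (10.94 and 11.82), so this order was not particular to type 2 markers. The mean of 13 type 1 markers was 11.82 to 11.99 in knockout and 11.28 to 11.45 in control arrays, and 10 of the 13 rose (76.9%, against 8.6% of all genes). The mean of 8 club cell markers was 8.95 to 9.27 in knockout and 9.56 to 9.79 in control arrays, with 4 of the 8 lower (50%, against 10.2% of all genes). The 4 that limma did not call included Scgb1a1 (−0.46, SE 0.18, adjusted p = 0.114) and Cyp2f2 (0.02, SE 0.10, adjusted p = 0.933). The mean of 10 ciliated cell markers was 7.60 to 8.0 in knockout and 8.01 to 8.25 in control arrays, with 5 of the 10 lower (50%, against the same 10.2%). The part of these cell types in the metal gene differences was not tested.

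**Figure D4:**
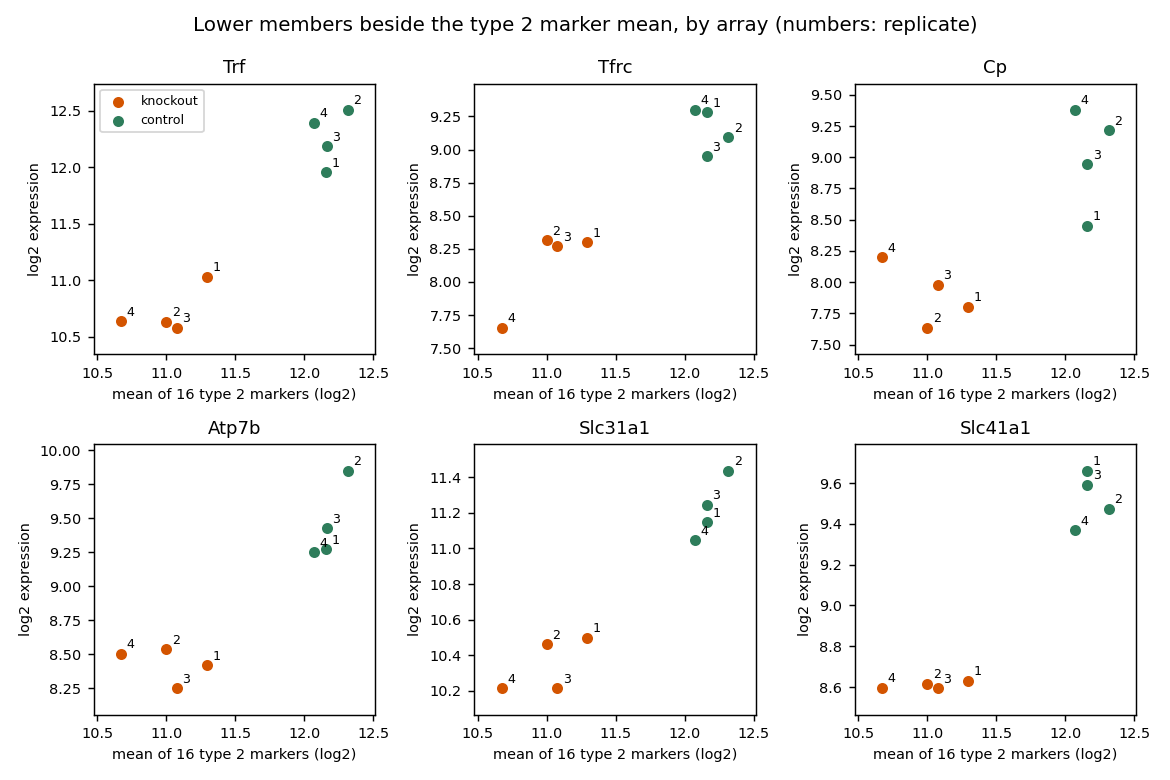
Log2 expression of 6 lower genes (vertical axis, scaled to each gene) against the mean of 16 type 2 markers (horizontal axis, log2) in the 4 knockout and 4 control arrays, numbered by replicate. The knockout arrays lie between 10.67 and 11.29 in the marker mean and the control arrays between 12.07 and 12.32, and all 6 genes are lower in every knockout array.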

How the data were processed

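Epcam-selected cells of E18.5 mouse lungs were measured on 8 single-colour arrays after biotin labelling, per the labels' protocols. The authors deposited a table of 35556 probe sets, taken here as log2 expression from the range of its values; the labels name neither its software nor its normalization. At every rank each array lay within 0.17 of the mean over arrays, so no scaling was added, and a change in total RNA per cell would not show. Symbols came from GEO's platform annotation (21789 probe sets with 1 symbol, 1621 with several, 12146 with none listed), of which 21698 matched RefSeq GRCm38.p6. For 999 genes with several probe sets the brightest on average was used.

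All 8 arrays entered 1 limma fit (version 3.58.1, R 4.3.3; lmFit and eBayes, no covariate, two-sided, Benjamini-Hochberg over 19938 genes, threshold 0.05), checked on simulated data. Stk4 had an exact permutation test over 70 assignments (p = 0.0286, the smallest they can give). Alternatives were other scalings, a variance trend, array weights, a filter on dim genes, the mean over probe sets, a replicate block, covariates and leaving out arrays. Every member was reported, and of each other list up to 4 called genes with the smallest p. Flvcr1, Ireb2, Aco1, Steap3, Ncoa4, Atox1, Ccs, Mtf1, Hmox1, Epcam, Lyz1, Alas2, Sftpc, Scgb1a1 and Cyp2f2 were added with their values in view. The members and lists were chosen with earlier results of these data known, so their shares beside all genes describe the lists alone.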

Additional observations from a re-analysis of the deposited data

Results flagged for a closer look

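Within a group of 4 arrays, 1 array stood far from the other 3 (Dixon's test) in 8 of 80 gene and group combinations, and chance flags about 1 in 20. Among called genes, Trf in knockout replicate 1 read 11.03, against 10.58 to 10.63 in the other knockout arrays. Tfrc in knockout replicate 4 read 7.65, against 8.27 to 8.32. Among the genes that did not pass, Slc39a2 in control replicate 2 read 7.28, against 8.75 to 8.92 in the other controls, and Slc39a10 in knockout replicate 3 read 9.44, against 9.05 to 9.08. Slc39a14 read 7.32 in knockout replicate 1, against 7.48 to 7.51. Slc30a9 was 9.28 in knockout replicate 4, against 9.51 to 9.56 in the other knockout arrays. In control arrays, Slc30a6 was 8.14 in replicate 3, against 8.49 to 8.56, and Slc30a8 was 5.78 in replicate 1, against 5.58 to 5.61.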

How the results depend on the processing

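Of the 11 called genes 8 passed in the same direction under each of the 18 alternatives run, 8 of which leave out 1 array. The exceptions were Slc11a2, Slc30a4 and Slc30a7. The number of genes of the set higher in knockout was 2, and it was 1 with each array centred on its median, 1 with a replicate block and 1 with Xist as a covariate. Leaving out 1 array put it between 1 and 3: it was 1 without knockout replicate 1, 2 or 3 or control replicate 3. The number lower was 9, and 7 with the mean of the mesenchymal markers added to the fit. It lay between 8 and 9 without single arrays, and was 8 without knockout replicates 1 and 4 together. Over all genes the mesenchymal covariate left 836 higher and 1037 lower, against 1715 and 2031. The median difference of the set stayed between −0.04 and −0.02. Of the 29 genes not called, 4 passed under some alternative (Slc39a2, Slc39a4, Slc39a8 and Slc39a13). Same-numbered knockout and control arrays deviated together with correlations of 0.060, 0.095, −0.082 and 0.044, and 1 of the 4 knockout arrays correlated best with its own number, so the numbers were not taken to pair samples. With a replicate block 1595 genes were higher and 1899 lower, 9 genes of the set were lower, and the call of Slc11a2 ended (0.32, adjusted p = 0.0742). The causes of these shifts were not tested. The arrays give no count of molecules, and for genes near the level of the olfactory receptor genes a change may not show.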
